A study of Mus musculus with 12 samples.

Results

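The core circadian clock genes are the transcription factors and repressors that make up the molecular clock of nearly every cell. The 10 described here were Arntl (Bmal1), Clock, Npas2, Per1, Per2, Per3, Cry1, Cry2, Nr1d1 and Nr1d2, out of 50600 genes in the count files. They were picked by gene symbol, and the set was singled out with its differences between the groups of these libraries already known. The fold changes and calls between groups given below therefore describe the samples and serve as no test of the set.

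The study measured RNA by sequencing in the descending aorta, taken down to the diaphragm, of mice with 1 functional copy of the elastin gene (Eln+/-), a model of a stiff arterial wall. Minoxidil, a drug that relaxes arteries by opening KATP channels of smooth muscle, was dissolved in the drinking water. The off-drug group (n = 4) received it for 2 weeks starting at 2.5 months of age and then had 1 week of drug-free water, the on-drug group (n = 4) was sampled after the same 2 weeks of drug, and the control group (n = 4) drank plain water. All 12 mice, controls included, were Eln+/- on C57BL/6J and carried a labelled age of 3 months, and no wild-type aorta was analysed here. By the schedule the off-drug mice were harvested a week after the on-drug mice would have been. The labels give neither the hour of tissue collection nor the light schedule, so the part of either in any difference between groups was not tested.

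In the clock loop, BMAL1 (encoded by Arntl) pairs with CLOCK or its paralogue NPAS2, binds E-box sequences and switches on the Per, Cry and Nr1d genes. The PER and CRY proteins return to the nucleus and hold that pair back, while REV-ERB alpha and beta (encoded by Nr1d1 and Nr1d2) repress Arntl and Npas2 through sites that they share with the ROR activators. The transcripts of one arm therefore peak at other hours of the day than those of the other arm. In the vessel wall the clock is known for daily rhythms in vascular tone and blood pressure.

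The libraries held 41524501 to 109423243 counts assigned to genes, and the 10 clock genes took 0.0453% to 0.0711% of them. Single counts of a clock gene ran between 56 (Arntl, off-drug replicate 1) and 27640 (Nr1d2, off-drug replicate 4), and all 10 passed the filter on low counts that left 24660 genes for testing. Smooth-muscle markers were abundant in each library, with 8 markers summing to 18467 to 21077 CPM (counts divided by the scaled size of the library) off drug, 18993 to 21759 CPM on drug and 16693 to 19243 CPM in controls. Within the on-drug group, replicate 4 stood farthest from its group mean for 7 of the 10 clock genes. Some on-drug fold changes and shares of clock genes are also given without that library.

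A week after withdrawal, the aortas held less RNA of the activators and more of most repressors than control aortas. Arntl was 15.9-fold, Npas2 3.63-fold and Clock 2.15-fold lower, while Cry1 was 4.45-fold, Per3 4.22-fold and Per2 3.24-fold higher. At the end of drug treatment, Per3 was 1.87-fold and Cry2 1.63-fold higher and Npas2 1.98-fold lower than in controls, and Cry1 was not called. CPM values are scaled by trimmed mean of M values (TMM) factors, and fold changes are log2 values ± standard error (SE) from edgeR's quasi-likelihood fit over all 12 libraries. A gene is called where its p, adjusted by the Benjamini-Hochberg method over all tested genes, is under 0.05. In the off-drug group against controls, 9 of the 10 clock genes were called (5 higher, namely Per2, Per3, Cry1, Cry2 and Nr1d2, and 4 lower, namely Arntl, Clock, Npas2 and Nr1d1), beside 12% of all tested genes, 6.27% higher and 5.77% lower. Between off-drug and on-drug mice 8 were called, 4 higher off drug and 4 lower, beside 12.4% of all tested genes, 5.44% higher and 6.92% lower. In the on-drug group against controls 5 were called (Per3, Cry2 and Nr1d1 higher, Clock and Npas2 lower), beside 7.07% of all tested genes, 4.13% higher and 2.94% lower. Without on-drug replicate 4 that on-drug count was 3, all higher, because Clock (log2 fold change -0.26) and Npas2 (-0.85) were no longer called. In that fit 918 of all tested genes were called, 3.69% of them, against 1743 with all libraries. The groups' libraries did not overlap at all for 9 clock genes off drug against control, for 8 off drug against on drug and for 6 on drug against control, where 16.9%, 18.8% and 12.3% of all tested genes had no overlap. The median size of the log2 fold change over the 10 genes was 1.40 off drug against control, 0.95 off drug against on drug and 0.45 on drug against control, beside 0.20, 0.19 and 0.18 over all tested genes. The comparisons share mice, so they are not independent of each other. In bulk aorta, fewer cells of a type and less RNA per cell cannot be told apart for any of these values.

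**Figure D1:**
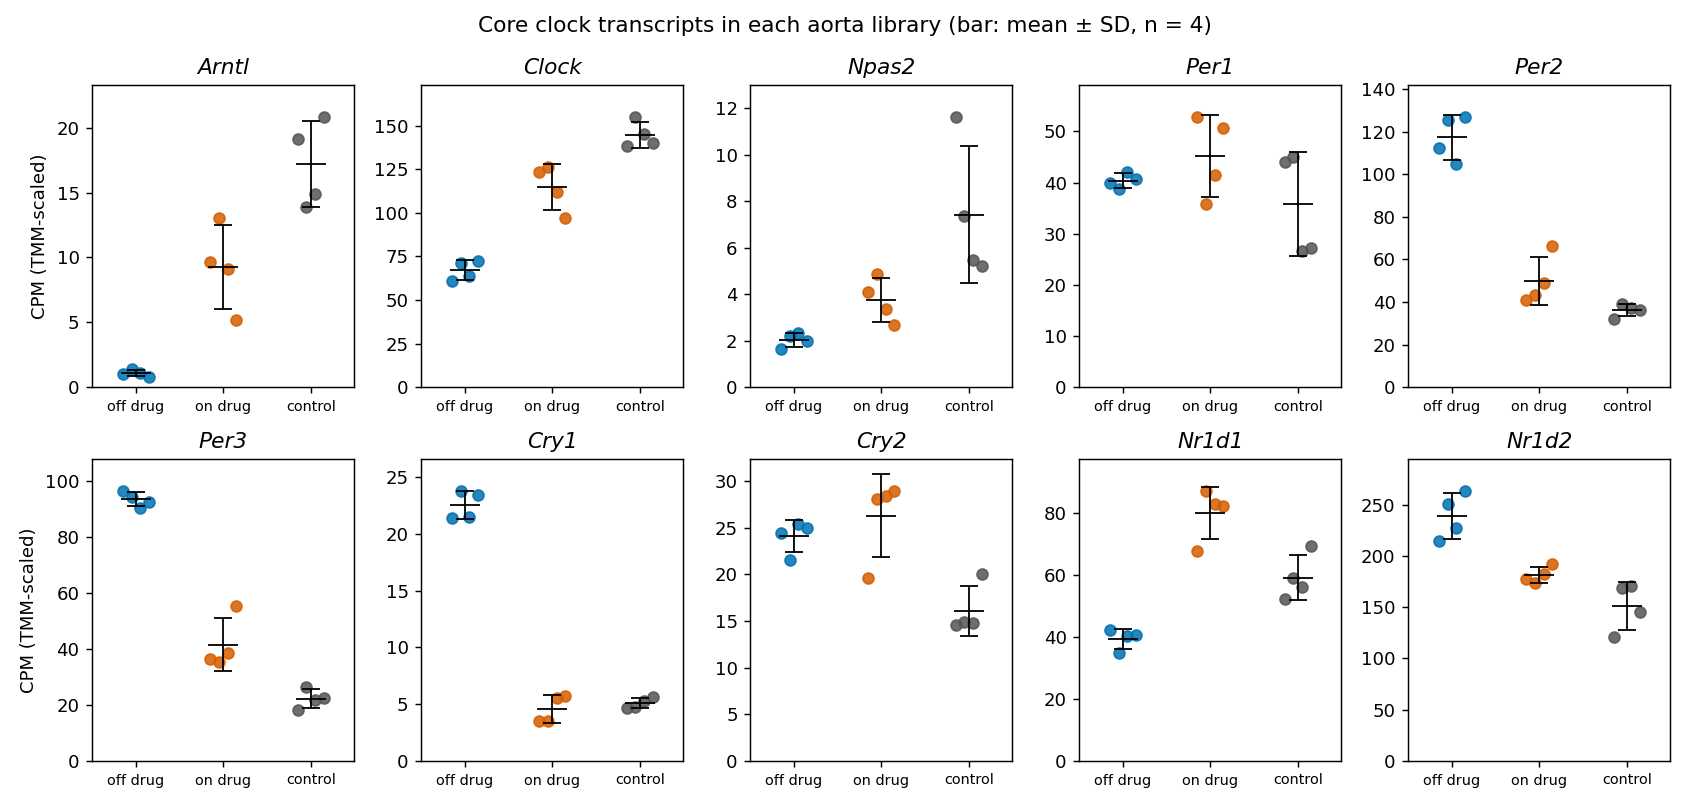
Expression of the 10 core clock genes in each library, in TMM-scaled CPM (1 point per mouse, bars for group mean ± SD, n = 4), with a panel per gene and the groups ordered off drug, on drug, control. Arntl off drug lay between 0.791 and 1.42 CPM, under every library of the other groups, and Cry1 off drug lay between 21.4 and 23.8 CPM, above all of them.

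The activators Arntl, Clock and Npas2 were lowest off drug. Arntl, whose product is the obligate partner in the activating pair, had 1.02, 1.42, 1.11 and 0.791 CPM off drug, 9.63, 13.1, 9.12 and 5.20 CPM on drug and 19.1, 13.9, 14.9 and 20.8 CPM in controls. The groups formed 3 separate ranges with no overlap. Its log2 fold change was -3.99 ± 0.30 off drug against control, 15.9-fold lower, while it was -3.09 ± 0.29 off drug against on drug, 8.52-fold lower. Both fold changes ranked 1 by size among the 14904 genes whose mean log2 CPM reached 1. That mean was taken over all 12 libraries, and Arntl, averaging 1.09 CPM off drug, reached it through the other groups. The rank describes the size of the difference and is no support for the set, which was singled out with these differences known. On drug against control the log2 fold change was -0.90 ± 0.25 and the adjusted p was 0.0577, so Arntl was not called, although the value of each on-drug library was under that of each control library. That call depended on the settings: DESeq2 gave an adjusted p of 0.0152, limma-voom 0.0173, the non-robust fit 0.0242 and a stricter filter on low counts 0.0397. Leaving out on-drug replicate 2 gave 0.0245, with a log2 fold change of -1.12. Leaving out on-drug replicate 4, the lowest on-drug library for Arntl, gave -0.70 with an adjusted p of 0.0544, the smallest difference of the 21 other settings.

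Arntl (ENSMUSG00000055116.8, chr7:113207465-113314126, plus strand of GRCm38) shares 33 exonic bases, or 0.439% of its exon length, with the antisense gene model Gm45355. Reads in that overlap were counted for both genes and without strand. Gm45355 had log2 fold changes of -3.71 off drug against control, -2.40 off drug against on-drug libraries and -1.30 on drug against control, all called. The off-drug values rest on few reads, with 2, 9, 6 and 9 counts of Gm45355 off drug, 63, 28, 12 and 23 on drug and 102, 46, 59 and 69 in controls. The shared bases make up 11.1% of Gm45355, and how many of its reads lay in them was not tested. Repression of Arntl is known to pass through ROR/REV-ERB recognition sites. Among its RefSeq promoter windows, 1 held a match to the core as searched here, 30 bases after a listed transcription start. The core was searched as TAGGTCA or TGGGTCA on both strands, and 6.45% of 32851 mouse promoter windows of the same length hold one. Sites with other letters were not searched, so the match is no count of all such sites in the promoter. The stretch is shown because Arntl had the largest fold change of the 10 genes and the core is the kind of site that REV-ERB proteins are known to bind, with the core in capitals (RefSeq, GRCm38.p6, chr7:113207530-113207559, plus strand).
Arntl: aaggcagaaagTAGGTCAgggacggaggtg

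Clock, which encodes the partner of BMAL1 and lies at chr5:76209868-76304792 on the minus strand, had 61.0, 71.4, 64.0 and 72.5 CPM off drug, 123.7, 126.4, 112.2 and 97.0 CPM on drug and 138.3, 154.9, 145.1 and 140.1 CPM in controls. No library of one group reached into another group's range. Its fold change on the log2 scale was -1.10 ± 0.08 off drug against control, -0.77 ± 0.08 off drug against on drug and -0.33 ± 0.08 on drug against control, all called. Without on-drug replicate 4, the lowest on-drug library, the difference on drug against control was -0.26 and was not called (adjusted p 0.0593). Npas2, the paralogue of Clock at chr1:39193731-39363236 on the plus strand, had 1.65, 2.20, 2.32 and 1.98 CPM off drug, 4.10, 4.88, 3.34 and 2.68 CPM on drug and 11.6, 7.38, 5.48 and 5.22 CPM in controls. Its 3 groups did not overlap either, but the control libraries spread the most, with replicate 1 at more than the value of replicates 3 and 4 together. For Npas2 the log2 fold change was -1.86 ± 0.25 off drug against control, called under all 21 other settings. It was -0.87 ± 0.25 off drug against on drug (adjusted p 0.0370) and -0.99 ± 0.25 on drug against control (adjusted p 0.0273). Off drug against on drug the call was lost under 10 of 21 other settings, with adjusted p up to 0.118: without a filter on low counts, with library sizes alone, and without control replicate 2, any 1 of the 4 off-drug replicates, or on-drug replicate 1, 2 or 3. On drug against control it was lost under 5, with adjusted p between 0.0559 and 0.0887: without the filter, with those groups fitted alone, and without control replicate 2, on-drug replicate 3 or on-drug replicate 4. The log2 fold change in those 5 settings lay between -0.999 and -0.85, the smallest being without on-drug replicate 4. Over all 21 other settings it lay between -1.14 and -0.69. The smallest of all, -0.69, came without control replicate 1, the highest control library, and was still called. Without that library Npas2 off drug against control was -1.56, also called.

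**Figure D2:**
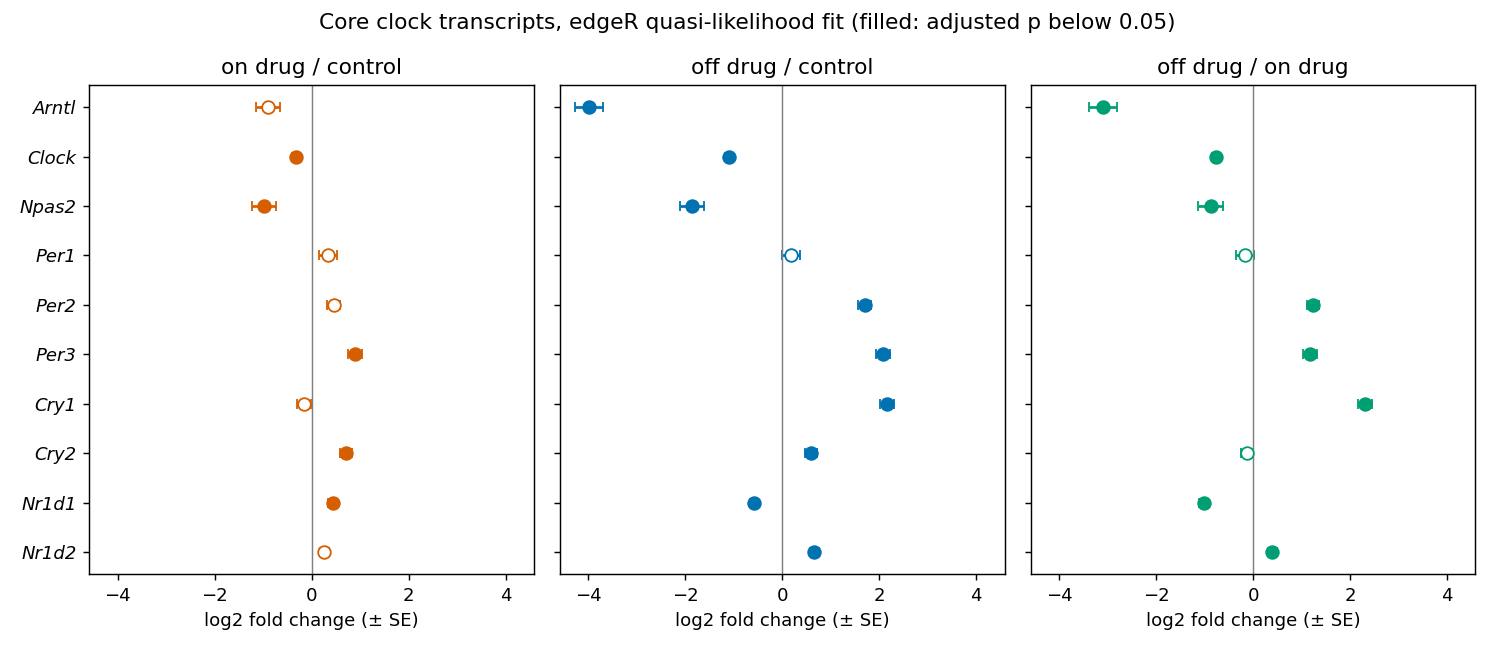
Log2 fold changes (points) with SE (bars) of the 10 clock genes in the 3 comparisons, from edgeR's quasi-likelihood fit on 12 libraries. Arntl lay farthest to the negative side off drug against control, at -3.99, and Cry1, at 2.15, and Per3, at 2.08, lay farthest to the positive side.

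Among the period genes, whose products carry the repressor complex, Per2 and Per3 were highest off drug and Per1 was called in no comparison. Per3 (chr4:151003652-151044665, minus strand) had 96.3, 94.3, 90.4 and 92.6 CPM off drug, 36.3, 35.3, 38.6 and 55.5 CPM on drug and 18.0, 26.4, 21.6 and 22.6 CPM in controls. The groups did not overlap, and on-drug replicate 4 was the on-drug library nearest to the off-drug range. On the log2 scale Per3 differed by 2.08 ± 0.15 off drug against control, 1.17 ± 0.14 off drug against on drug and 0.90 ± 0.14 on drug against control, all called, and the last was 0.73 and still called without on-drug replicate 4. Per2 (chr1:91415982-91459324, minus strand), whose loss is known to disturb daily rhythms in mice, had 112.5, 125.6, 104.9 and 126.8 CPM off drug, 41.0, 43.4, 48.8 and 66.2 CPM on drug and 32.2, 39.1, 37.3 and 36.3 CPM in controls. Off-drug libraries were all above the others, and on-drug libraries lay just above controls. On the log2 scale Per2 differed by 1.70 ± 0.13 off drug against control and, in the same mice, by 1.24 ± 0.13 against on drug, both called. On drug against control it was 0.46 ± 0.13 with an adjusted p of 0.0561, not called. DESeq2 (0.00523), the stricter filter (0.0416), the non-robust fit (0.0345) and leaving out on-drug replicate 1 (0.0210) each gave an adjusted p under the threshold. So did the edgeR fit with the replicate number as a block (0.0228). Leaving out on-drug replicate 4 gave a log2 fold change of 0.29 (adjusted p 0.0650).

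Per1 (chr11:69095217-69109960, plus strand), the period gene known for rapid induction, had 40.00, 38.7, 42.1 and 40.7 CPM off drug, 52.8, 35.9, 41.4 and 50.7 CPM on drug and 44.1, 44.9, 26.7 and 27.2 CPM in controls. The groups overlapped in all 3 comparisons. The control libraries split into a high pair (44.1 and 44.9 CPM) and a low pair (26.7 and 27.2 CPM), while the off-drug libraries spanned only 38.7 to 42.1 CPM. The log2 fold change was 0.18 ± 0.19 off drug against control, -0.17 ± 0.19 off drug against on drug and 0.34 ± 0.19 on drug against control. None of these was larger than the spread between replicates allows to be called with an SE of 0.19, which does not show that Per1 was equal in the groups.

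The cryptochromes, the other repressors of the complex, separated the groups in different ways. Cry1 (chr10:85131700-85185064, minus strand), the stronger repressor of the pair, had 21.4, 23.8, 21.5 and 23.4 CPM off drug, 3.51, 3.51, 5.52 and 5.70 CPM on drug and 4.68, 4.73, 5.24 and 5.62 CPM in controls. Every off-drug library was above all others, while on-drug and control libraries overlapped. The log2 fold change was 2.15 ± 0.14 off drug against control (4.45-fold) and 2.31 ± 0.14 off drug against on drug (4.97-fold). On drug against control it was -0.16 ± 0.14, not called. Without on-drug replicate 4 that difference was -0.29, also not called (edgeR adjusted p 0.272). Cry1 ranked 15 by size of fold change off drug against control and 4 against on drug, among those 14904 genes. Cry2 (chr2:92403646-92434043, minus strand) had 24.5, 21.5, 25.4 and 25.0 CPM off drug, 19.6, 28.1, 28.4 and 28.9 CPM on drug and 14.5, 14.9, 14.7 and 20.1 CPM in controls. It was higher than in controls in both groups that had received the drug, with a log2 fold change of 0.58 ± 0.13 off drug and 0.71 ± 0.13 on drug, both called. Control replicate 4, at 20.1 CPM, was above on-drug replicate 1, at 19.6 CPM, so on-drug and control libraries overlapped. Off drug against on drug the log2 fold change was -0.12 ± 0.13, not called. Cry2 shares 295 exonic bases, or 4.67% of its exon length and 24.8% of the partner's, with the opposite-strand transcript D930015M05Rik, whose log2 fold changes were 0.37 off drug against control (not called), -0.30 off drug against on drug (not called) and 0.67 on drug against control (called).

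Promoter windows run between 250 bases before and 50 bases after a listed start. In RefSeq they were matched by symbol for 9 of the 10 clock genes, Per2 being the one without. These genes had 13 windows, and a gene is named below where at least 1 of its windows held the match. The E-box CACGTG, the site of the activating pair, was present in the windows of Cry1 and Per1 and in 7.15% of all windows. The E-box variant CACGTT, which reads AACGTG on the other strand, was present for Cry1, Cry2 and Nr1d1 and in 4.68% of all windows. The D-box, searched as TTATGTAA or TTACGTAA and known as the site of the output factors DBP, TEF, HLF and NFIL3, was present only for Per3 among these genes and in 1.06% of all windows. Both strands were searched, no printed motif overlapped another, and a match is a description of the letters. The stretches of 80 bases below are shown because they hold E-box or D-box letters in the promoters of repressor genes, with each match in capitals and each stretch on the gene's strand (RefSeq, GRCm38.p6). They lie at chr10:85185082-85185161 for Cry1 (minus strand), chr2:92434194-92434273 for Cry2 (minus), chr11:69098745-69098824 for Per1 (plus), chr4:151044804-151044883 for Per3 (minus) and chr11:98775378-98775457 for Nr1d1 (minus).
Cry1: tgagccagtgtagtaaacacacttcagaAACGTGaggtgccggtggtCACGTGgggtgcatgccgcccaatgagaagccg
Cry2: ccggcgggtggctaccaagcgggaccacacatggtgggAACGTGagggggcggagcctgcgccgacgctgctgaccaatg
Per1: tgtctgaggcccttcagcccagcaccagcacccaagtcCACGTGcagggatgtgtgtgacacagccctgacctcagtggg
Per3: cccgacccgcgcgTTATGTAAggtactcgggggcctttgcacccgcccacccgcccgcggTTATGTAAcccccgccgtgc
Nr1d1: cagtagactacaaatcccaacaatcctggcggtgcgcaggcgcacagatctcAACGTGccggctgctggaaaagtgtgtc

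Values of genes that share a match are set side by side here. The part of the matches in these values was not tested, and sites outside the windows were not searched. Windows of Cry1 and Per1 hold CACGTG, though not every window of Per1 does. Off drug against control the log2 fold changes of Cry1 and Per1 were 2.15 and 0.18. Those of Cry2 and Nr1d1 both hold the variant without CACGTG, and their log2 fold changes in that comparison were 0.58 and -0.59. The D-box matches of Per3 begin at positions -205 and -158 relative to its start, and no other clock gene window held one.

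The nuclear receptor genes Nr1d1 and Nr1d2, which encode the REV-ERB repressors of Arntl, went opposite ways off drug. Nr1d1 (chr11:98767932-98775333, minus strand) had 42.1, 34.7, 40.1 and 40.6 CPM off drug, 67.6, 86.9, 82.7 and 82.1 CPM on drug and 52.0, 59.0, 56.0 and 69.1 CPM in controls. It was lowest in the off-drug libraries, and the on-drug libraries were above the controls apart from on-drug replicate 1, which lay under control replicate 4. Nr1d1 had a log2 fold change of -0.59 ± 0.09 off drug against control, -1.02 ± 0.09 off drug against on drug and 0.43 ± 0.09 on drug against control, all called. Nr1d2 (chr14:18204054-18239127, minus strand) had 214.5, 250.9, 227.3 and 263.3 CPM off drug, 177.5, 173.6, 182.7 and 192.2 CPM on drug and 120.8, 168.7, 170.2 and 145.0 CPM in controls. The groups did not overlap, although the highest control (170.2 CPM) came close to the lowest on-drug library (173.6 CPM). Its log2 fold change was 0.66 ± 0.09 off drug against control, 0.40 ± 0.09 off drug against on drug, both called, and 0.26 ± 0.09 on drug against control, not called (adjusted p 0.0999).

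The exons of Nr1d1 overlap those of Thra, the thyroid hormone receptor alpha gene on the opposite strand, by 263 bases, which is 8.55% of Nr1d1 and 5.70% of Thra. Reads there were counted for both genes, so part of each count cannot be told apart. Thra averaged 105.6 CPM off drug, 138.7 CPM on drug and 149.5 CPM in controls. For Thra the log2 fold change was -0.50 against control and -0.39 against on drug in the off-drug group, both called, and -0.11 on drug against control, where Nr1d1 was higher and Thra was not called.

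On-drug means lay between those of the off-drug and control groups for 6 of the 10 genes, namely Arntl, Clock, Npas2, Per2, Per3 and Nr1d2. On the CPM scale the on-drug mean of Per2 lay at 16.7% of the difference of the off-drug mean from the control mean, that of Per3 27.0%, that of Nr1d2 34.5% and that of Clock 38.5%. For Arntl this share was 49.3% and for Npas2 68.2%. The other 4 genes did not follow that order. On drug, the means of Per1, Cry2 and Nr1d1 were the highest of the 3 groups, and that of Cry1 was the lowest. These shares describe group means over 4 mice each. Without on-drug replicate 4, a setting chosen for these shares after the data had been seen, that of Per2 was 9.99%, while it was 20.4% for Per3, 30.4% for Nr1d2, 30.8% for Clock, 40.9% for Arntl and 61.6% for Npas2.

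To compare genes, CPM was divided by the length of all annotated exons of a gene, in kilobases. The isoforms present were not measured, so the order between genes is approximate. On that scale Nr1d2 was the highest clock transcript in every group. It stood at 47.8 ± 4.4 CPM per kb off drug, 36.3 ± 1.6 on drug and 30.2 ± 4.7 in controls (SD, n = 4 each). Off drug the order then ran Per2 (20.1 CPM per kb), Nr1d1 (12.8), Per3 (9.72), Per1 (7.17), Cry1 (6.75), Clock (4.90), Cry2 (3.81), Npas2 (0.425) and Arntl (0.144). Only Per1 and Cry1 were neighbours whose libraries overlapped there. On drug the order was Nr1d1 (26.0), Per2 (8.51), Clock (8.37), Per1 (8.03), Per3 (4.31), Cry2 (4.15), Cry1 (1.36), Arntl (1.23) and Npas2 (0.782). On drug, Per2, Clock and Per1 overlapped in their ranges, as did Per3 with Cry2, Cry1 with Arntl, and Arntl with Npas2. In controls it was Nr1d1 (19.2), Clock (10.5), Per1 (6.35), Per2 (6.19), Cry2 (2.54), Per3 (2.30), Arntl (2.28), Npas2 (1.55) and Cry1 (1.52). Control ranges of Per1 and Per2 overlapped, and so did those of each pair of neighbours between Cry2 and Cry1. Arntl stood last off drug, and Cry1 stood in the middle of the order off drug and last in controls.

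**Figure D3:**
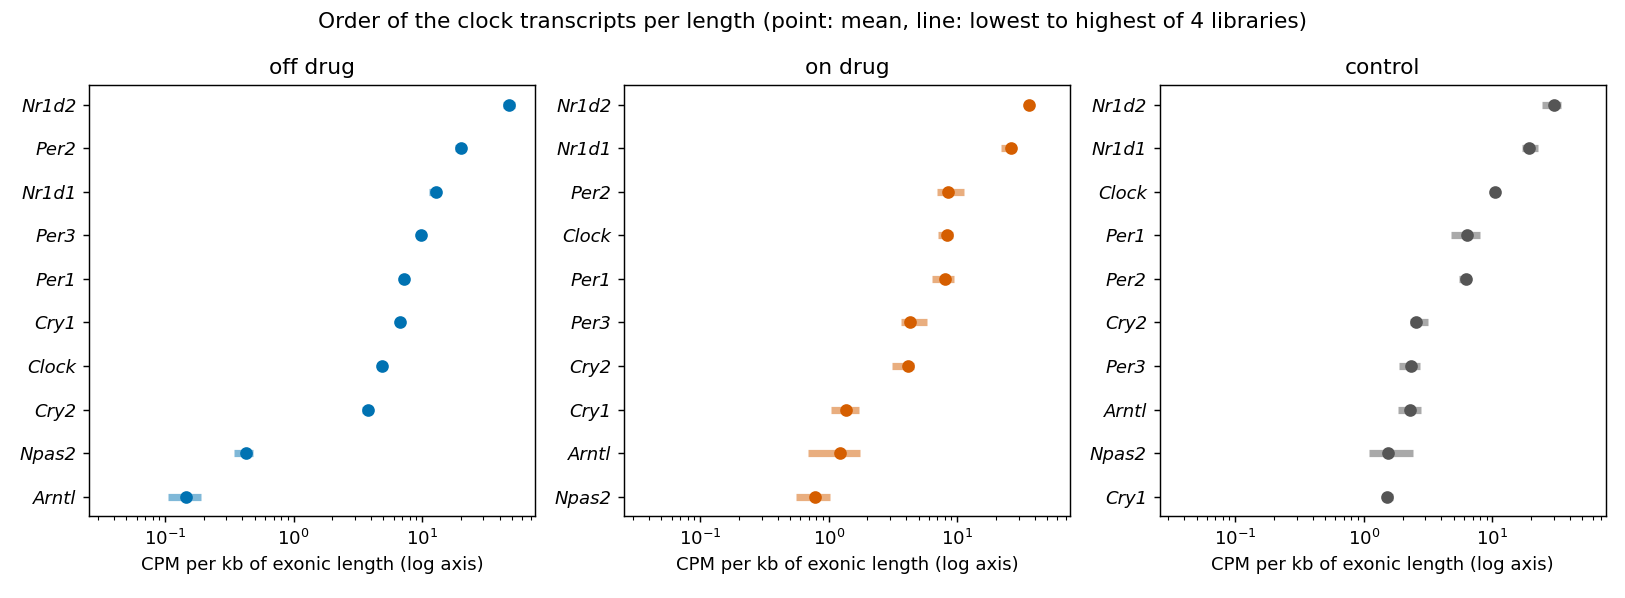
Levels of the 10 clock genes in CPM per kilobase of exon on a log axis, ordered within each group (points for means, lines between the lowest and the highest library, n = 4 per group). Nr1d2 was highest in all 3 groups, and Arntl was lowest off drug at a mean of 0.144 CPM per kb.

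Ratios of counts within a library need no scaling between libraries. The log2 ratio of Per3 to Arntl counts was 6.57, 6.05, 6.34 and 6.87 off drug, 1.91, 1.43, 2.08 and 3.42 on drug and -0.09, 0.93, 0.53 and 0.12 in controls. No library of any group fell inside another group's range, and on-drug replicate 4 was the on-drug library nearest to the off-drug range. The log2 ratio of Cry1 to Cry2 counts ran between -0.24 and 0.14 off drug, between -3.00 and -2.34 on drug and between -1.84 and -1.49 in controls. On that ratio the on-drug libraries were below the controls, whereas Cry1 alone overlapped between them. The log2 ratio of Nr1d1 to Nr1d2 counts ran between -2.85 and -2.35 off drug, between -1.39 and -0.998 on drug and between -1.60 and -1.07 in controls. On-drug and control libraries overlapped on it, and the off-drug libraries were below both. These ratios come from the same counts as the fold changes and add no separate evidence.

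Spread within a group was measured around the group mean, so differences between groups do not enter it directly. The pooled within-group standard deviation (SD) of log2 CPM was 0.41 for Arntl, 0.39 for Npas2, 0.29 for Per1, 0.24 for Cry1, 0.22 for Per3, 0.21 for Cry2 and for Per2, 0.16 for Nr1d2, 0.15 for Nr1d1 and 0.13 for Clock. Each was larger than the SD of 76.6% to 98.0% of the genes within 0.5 log2 units of its mean level, and for 6 of the 10 it exceeded that of more than 90% of them. That mean level was taken over all 12 libraries, so differences between groups did affect which genes served for comparison. The median SD over the 10 genes was 0.12 in off-drug libraries, 0.29 in on-drug libraries and 0.22 in controls. The largest of the 3 SDs was the on-drug one for 6 genes and the control one for 4, and never the off-drug one. The on-drug SDs include replicate 4, the library farthest from its group mean for 7 of the 10 genes. They were not taken without it, so a wider spread of the on-drug group in general is not shown. On-drug replicate 4 was the lowest on-drug library for Arntl, Clock and Npas2 and the highest for Per2, Per3, Cry1, Cry2 and Nr1d2. Group means accounted for 95.8% of the variance of log2 CPM for Arntl and 96.3% for Cry1, against 27.1% for Per1.

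**Figure D4:**
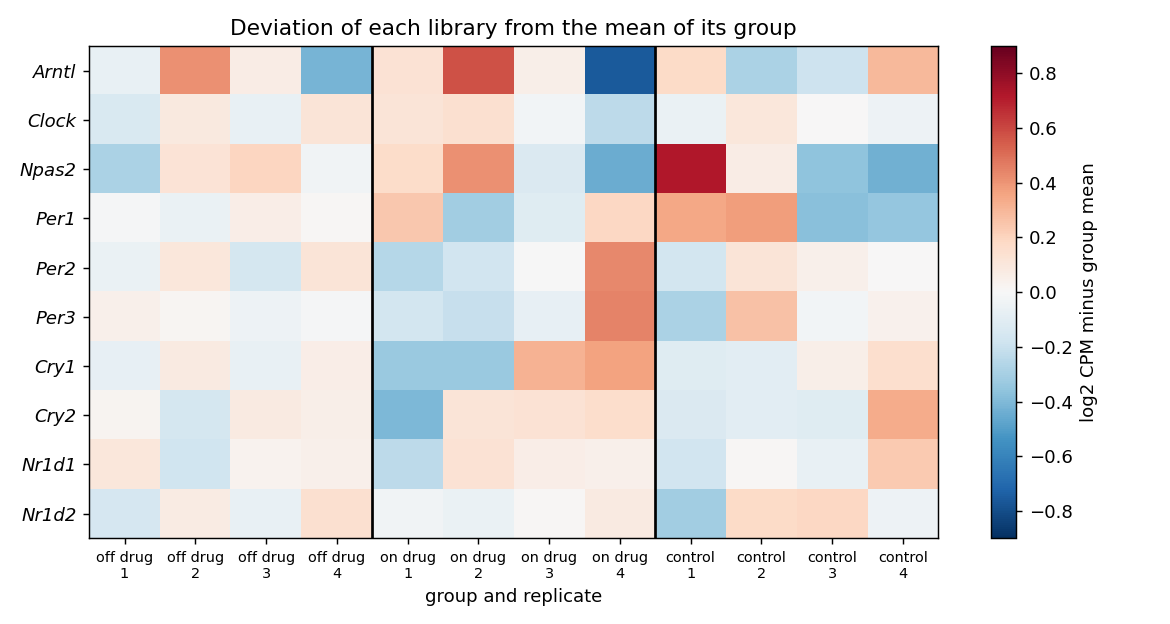
Deviation of each library from its own group mean in log2 CPM (colour scale) for the 10 clock genes (rows) and 12 libraries (columns, off drug, on drug, control). On-drug replicate 4 shows negative deviations for Arntl (-0.75), Clock and Npas2 beside positive ones for Per2, Per3 and Cry1.

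Whether the clock genes varied together between mice of one group was tested for all 45 pairs, on log2 CPM with group means removed, by an exact two-sided permutation test over the 13824 reorderings within groups. No pair passed at an adjusted p under 0.05 with Pearson's r or with Spearman's rho (0 of 45 each), and 8 pairs had an unadjusted p under 0.05 with r. Per2 and Nr1d2 had r = 0.61 and rho = 0.73 (exact permutation p 0.00166 and 0.00116, adjusted 0.0749 and 0.0521), and r = 0.84 without the 2 libraries farthest from the median of Per2. Per2 and Per3, 2 repressors, had r = 0.87 and rho = 0.78 (exact permutation p 0.00333 and 0.0173, adjusted 0.0749 and 0.218), and r = 0.68 without those 2 libraries. The highest r of all pairs was 0.92, between Cry2 and Nr1d1, with an adjusted exact permutation p of 0.122. Arntl and Per3 had r = -0.73 (exact permutation p 0.0388, adjusted 0.249), and r = -0.35 without the 2 libraries farthest from the median of Arntl. Leaving out the extremes of a gene narrows its range and can by itself weaken r, so the change cannot show what the relation rested on. Leaving out control replicate 2, 1 pair was called, Npas2 with Per3, at r = -0.79 and an adjusted exact permutation p of 0.0391. Relations over all 12 libraries are set by the groups and are given with no p: there Arntl had a Pearson r of 0.97 with Clock, 0.88 with Npas2, 0.72 with Nr1d1, -0.24 with Per1, -0.49 with Cry2, -0.90 with Nr1d2, -0.94 with Cry1, -0.97 with Per3 and -0.99 with Per2.

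Outside the 10, the genes whose log2 CPM followed Arntl most closely over the 12 libraries, among 11948 ranked genes, were Leo1 (r = 0.99), Calr (0.99), Pdia6 (0.98), Rbbp8 (0.98) and Clpx (0.98). Those that ran most opposite to Arntl were Mthfd1l (-0.99), Tspan4 (-0.98), Hlf (-0.98), Inmt (-0.97) and Fmo1 (-0.97). Closest to Per3 were Tef (0.98), Fmo1 (0.97), Tbc1d1 (0.97), Tspan4 (0.97) and Mthfd1l (0.97), and most opposite were Clpx (-0.98), Arpc5l (-0.97), Ano2 (-0.97), Leo1 (-0.97) and Rassf3 (-0.96). Calr and Pdia6 encode chaperones of the endoplasmic reticulum, and Tef and Hlf encode D-box factors. These correlations contain the differences between groups and carry no p.

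Of the 12 output and modulator factors of the clock, 11 passed the filter and Rorb did not. Off drug against control, 6 were called higher and 1 lower, with a median log2 fold change of 0.61 beside -0.01 over all tested genes. Off drug against on drug, 4 were higher and 2 lower (median 0.68), and on drug against control 7 were higher and 1 lower (median 0.54). Of all tested genes, 12%, 12.4% and 7.07% were called in these comparisons, in that order. Hlf, a D-box activator, rose by 2.22 log2 units off drug against control (adjusted p 1.4e-06), 1.61 off drug against on drug (1.5e-05) and 0.61 on drug against control (0.0326). Tef, of the same family, rose by 1.33 (7.3e-05), 0.79 (0.00219) and 0.54 (0.0353) in those comparisons. On-drug and control libraries overlapped for Hlf, where on-drug replicate 1 (9.12 CPM) lay under control replicate 3 (9.64 CPM), and for Bhlhe40. Fold changes of the output and modulator factors without on-drug replicate 4 were not taken. Ciart, a repressor that binds the BMAL1 complex, had 17.4, 19.7, 27.0 and 24.4 CPM off drug, 7.68, 6.43, 8.09 and 15.9 CPM on drug and 1.45, 3.01, 2.76 and 2.06 CPM in controls. Its log2 fold change was 3.26 off drug against control (0.000267), 1.21 off drug against on drug (0.0293) and 2.05 on drug against control (0.00733). Nfil3, which represses through the D-box, was the factor called lower against controls, with a log2 fold change of -1.08 off drug (0.0459) and -1.76 on drug (0.0104). Bhlhe41, a repressor acting at E-boxes, had a log2 fold change of 1.68 off drug (0.00138) and 1.21 on drug (0.0136) against controls. For its paralogue Bhlhe40 the largest log2 fold change by size was the one off drug against on drug, at -1.19 (0.000521). Bhlhe40 was 0.74 higher on drug against control (0.0199), and off drug against control it was not called (-0.45).

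**Figure D5:**
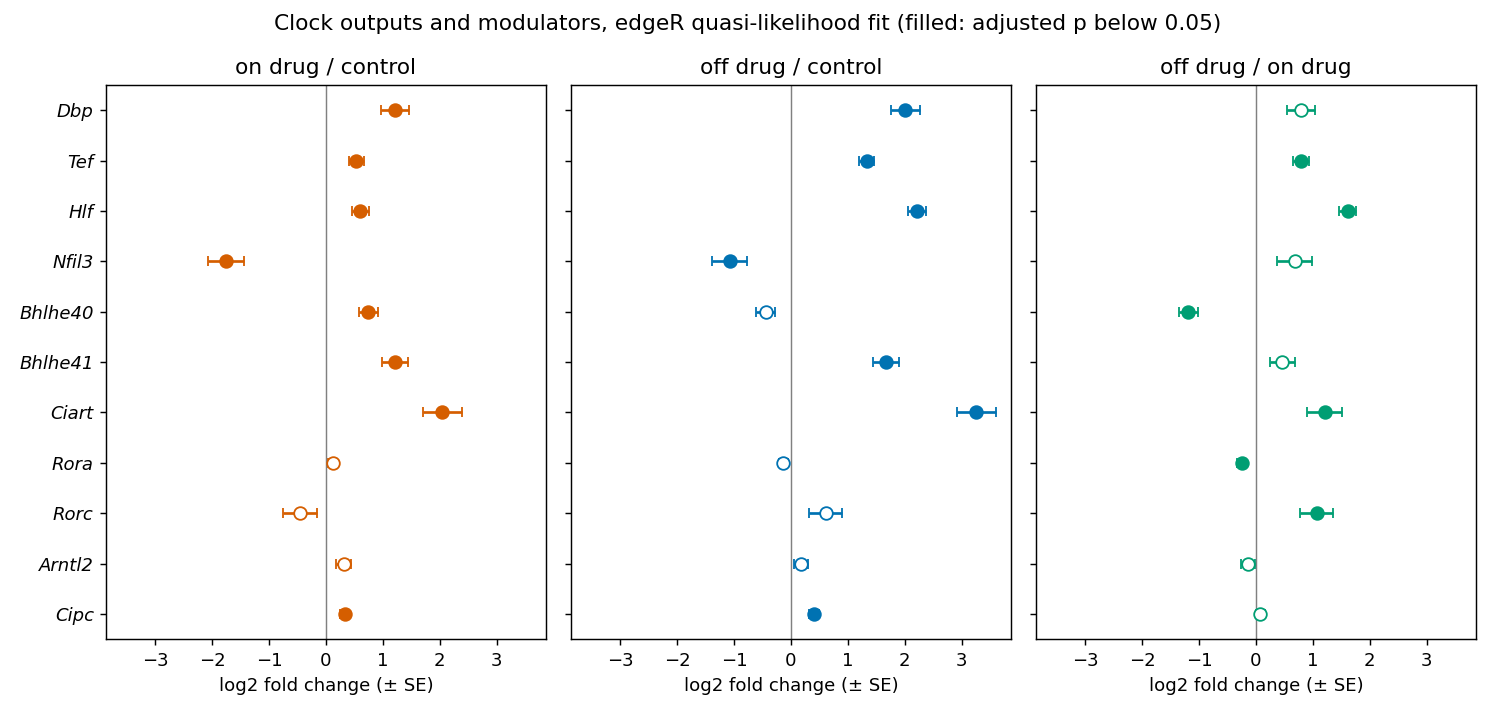
Log2 fold changes (points) with SE (bars) of the tested clock output and modulator factors in the 3 comparisons. Ciart and Hlf lay farthest to the positive side off drug against control, at 3.26 and 2.22, and Nfil3 lay on the negative side at -1.08.

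Of 8 genes that control the turnover of the PER and CRY proteins (casein kinases, F-box proteins, Gsk3b and Usp2), 1 was called off drug against control, Usp2, a deubiquitinase gene, at 0.36 (adjusted p 0.0493). Off drug against on drug 1 was called, Fbxl21, which encodes an F-box protein that binds cryptochromes, at 1.03 (0.00744), and on drug against control 0 were called by edgeR, DESeq2 or limma-voom, with 1 at an unadjusted p under 0.05. Genes that answer to glucocorticoids, hormones known to induce Per1 in many tissues, were called by edgeR for 0 of 8 off drug against control, where 4 had an unadjusted p under 0.05 and DESeq2 and limma-voom each called 3. They were called for 3 of 8 off drug against on drug, all lower (Klf9 at -0.28, Fkbp5 at -1.03 and Zbtb16 at -0.80), and for 1 of 8 on drug against control (Klf9, 0.25 higher). Immediate-early genes, whose inducing signals Per1 shares in part, were called lower for 6 of 8 off drug, both against control (median log2 fold change -2.18) and against on drug (median -1.71). On drug against control edgeR called 0 of 8 (median -0.54), DESeq2 and limma-voom called 1 each, and 2 had an unadjusted p under 0.05. Egr1 fell by 2.74 log2 units off drug against control, and by 2.10 against on drug, and Junb fell by 2.34 and 2.18. The 8 immediate-early genes together held 414 to 507 CPM off drug, 716 to 1416 CPM on drug and 1151 to 1478 CPM in controls. Their part in the differences of the clock genes was not tested. Beside the counts of these lists, 12% of all tested genes were called off drug against control, 12.4% off drug against on drug and 7.07% on drug against control.

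Markers of other cell types moved with the groups in part. Of all tested genes, 6.27% were called higher and 5.77% lower off drug against control. The shares were 5.44% higher and 6.92% lower off drug against on drug, and 4.13% higher and 2.94% lower on drug against control. Erythroid markers, which include haemoglobin genes with near-identical copies, were lower off drug than in controls for 5 of 5 genes, with summed levels of 1112 to 2607 CPM off drug, 2126 to 3286 CPM on drug and 2675 to 11163 CPM in controls. By edgeR 0 of 5 were called off drug against on drug, where 3 had an unadjusted p under 0.05 and DESeq2 and limma-voom called 2 each, and 0 of 5 on drug against control, where 1 had an unadjusted p under 0.05 and neither other tool called any. Of 8 smooth-muscle markers, 4 were higher off drug than in controls and 2 were higher on drug than in controls. Off drug against on drug, 1 smooth-muscle marker was higher and 1 lower. Fibroblast, endothelial and macrophage markers were each called lower off drug than on drug for 3 of 6 genes. Fibroblast markers summed to 4972 to 5778 CPM off drug, 6137 to 7154 CPM on drug and 5242 to 6420 CPM in controls, with 0 of 6 called off drug against control by edgeR, DESeq2 or limma-voom (2 at an unadjusted p under 0.05) and 1 higher on drug against control. Endothelial markers summed to 571 to 738 CPM off drug, 780.1 to 913 CPM on drug and 611 to 692 CPM in controls, with 1 of 6 lower off drug and 2 higher on drug against controls. Macrophage markers summed to 537 to 627 CPM off drug, 649 to 815 CPM on drug and 631 to 809 CPM in controls, with 2 of 6 lower off drug and 1 higher on drug against controls. Adipocyte markers, called for 0 of 6 in each comparison by edgeR, DESeq2 and limma-voom and at no unadjusted p under 0.05, summed to 18.4 to 187 CPM off drug, 85.3 to 183 CPM on drug and 41.2 to 252 CPM in controls. Skeletal-muscle markers summed to 6.92 to 18.8 CPM off drug, 8.01 to 10.2 CPM on drug and 5.08 to 6.58 CPM in controls, with 2 of 6 higher in either drug group than in controls and 1 higher off drug than on drug. Lymphocyte markers summed to 3.48 to 7.26 CPM off drug, 3.02 to 12.6 CPM on drug and 1.85 to 3.72 CPM in controls, and edgeR called 0 of 5 in each comparison. On drug against control 2 of them had an unadjusted p under 0.05 and DESeq2 called 1, and in the other comparisons no p was under 0.05. No marker of any list was at 0 throughout a group, and the part of these cell types in the clock differences was not tested.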

How the data were processed

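RNA from 12 aortas (3 groups of 4 mice) was sequenced. The deposited counts are whole reads per gene. Per the file headers, featureCounts 1.4.6-p3 counted them over GENCODE mouse M13 genes after alignment to a STAR 2.5.3a index. The build was GRCm38, as the submitters' processing notes state. The counting options took multi-mapping reads and reads over several genes for each gene, ignored duplicates and used no strand. The authors' deposited log2 table equals log2(count / size factor + 1) and supplied gene symbols here. A further deposited table with 12 columns of values was not used.

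Genes passing edgeR's filterByExpr (minimum count 10, total 15) were tested with edgeR 4.0.16 (R 4.3.3, robust quasi-likelihood, TMM scaling, 3 groups in one fit) and Benjamini-Hochberg adjustment over 24660 genes. The log2 CPM values used a prior count of 2. CPM was divided by exon length for levels. Alternatives were DESeq2 1.42.0, limma-voom (limma 3.58.1), other scalings and filters, the compared groups alone, a replicate block and leaving out each library. The 18 pairs of libraries within a group come from different mice, so differences beyond counting noise were certain in advance. Chi-square per degree of freedom against that noise was 25.9 to 114, and Spearman correlations ran between 0.983 and 0.989. On simulated data with 200 changed genes, the fit recovered 71.1% of changes of 1 log2 unit off drug against control, 57.7% off drug against on drug and 65.3% on drug against control, and 6.79%, 5.88% and 7.59% of its calls in these comparisons were false. Promoter sequences came from RefSeq (GRCm38.p6).

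The clock genes, the other gene lists and the tests were chosen with earlier results of these data known. Named were all 10 clock genes, genes sharing exonic bases with them, up to 3 called genes of each list in each comparison by smallest adjusted p (with their values in the other comparisons), and the 5 genes most like and most unlike Arntl and Per3.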

Additional observations from a re-analysis of the deposited data

Results flagged for a closer look

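Among 72 combinations of a gene and a group, 4 had a library so far from the other 3 that the gap took most of the group's range, and chance alone flags about 1 in 20 such groups. On-drug replicate 4 was the highest on-drug library for Per3, at 55.5 CPM, and the lowest for Nfil3, at 3.88 CPM. For Cry2, on-drug replicate 1 was the lowest of its group at 19.6 CPM, and control replicate 4 was the highest of its group at 20.1 CPM.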

How the results depend on the processing

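Of 630 fold changes of the clock genes under 21 other settings, 604 kept their direction and their side of the threshold, 16 lost a call, 10 gained one and 0 changed sign. The number of clock genes called off drug against control was 9 in each setting. Off drug against on drug it was 7 or 8, and on drug against control it was 4 to 7 with other methods, against 5. Leaving out 1 library gave 3 to 6 on drug against control, 7 to 8 off drug against on drug and 9 against control, and the low of 3 came without on-drug replicate 4. The count of within-group pairs called ran between 0 and 1 over the left-out libraries, and the 1 came without control replicate 2. Causes were not tested.

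The labels do not say what a replicate number marks. Over all tested genes, 12 correlations between libraries with the same number ran between -0.0797 and 0.0672. Those between libraries with different numbers ran between -0.106 and 0.113. No pairing of the mice by number was seen, but these correlations cannot exclude one that moves few genes. With a replicate block, 6 clock genes were called on drug against control (Per2 added, adjusted p 0.0228), 9 off drug against control and 8 against on drug. With the block the correlations gave no test.

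Of all genes, 1743 were called on drug against control, 2845 with DESeq2, 1147 with those groups fitted alone, and 906, 803 and 918 without control replicate 3, on-drug replicate 3 and on-drug replicate 4. With library sizes alone that comparison had 1038 higher and 388 lower genes, against 1018 and 725, and off drug against control had 1870 and 844, against 1545 and 1422.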
